A study of Mus musculus with 12 samples.

Results

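Mitochondrial carriers are small membrane proteins, encoded by the Slc25a genes, that move nucleotides, phosphate, carboxylic acids, amino acids, cofactors and acylcarnitines across the inner mitochondrial membrane. The uncoupling proteins Ucp1, Ucp2 and Ucp3 belong to the same family. Ucp1 lets protons leak into the matrix of brown fat mitochondria and so produces heat, while the roles of Ucp2 and Ucp3 are less settled. In the heart, which makes nearly all of its ATP in mitochondria, the exchange of ATP for ADP by Slc25a4, the uptake of phosphate by Slc25a3 and the entry of acylcarnitines through Slc25a20 serve every beat. Members were all rows of the count table whose symbol begins with Slc25a followed by a digit, with the 3 Ucp genes, that had 10 or more counts in at least 6 of 12 libraries. Of 51 genes with such a name, 43 passed, among 15221 of 54949 rows that met the same count minimum. The 8 that did not were Ucp1, Slc25a2, Slc25a21, Slc25a41, Slc25a43, Slc25a48, Slc25a54 and the pseudogene Slc25a5-ps.

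The libraries were made from ventricles of male wild-type C57BL/6N mice with the atria cut away. Heart failure with preserved ejection fraction, in which filling fails while the pumped fraction stays normal, was modelled in 1 group and set against control mice. Model mice received dietary fat and the nitric oxide synthase inhibitor L-NAME (0.5 g/L in the water) from 8 weeks of age for 5 weeks, and control mice received normal diet and water. The labels contradict each other in all 12 samples, because libraries named con (numbered 1 to 6) have the model's title and treatment, and libraries named HF (numbered 1 to 6) have those of control mice. Here the groups are called con-named and HF-named after these library names, with 6 libraries each, every fold change is HF-named over con-named, and which group was treated cannot be told from the labels. The authors' own deposited comparison of HF with control follows the library names, while the titles and treatments state the opposite. The design text counts 5 samples per group for this assay. Whether every library stands for its own mouse is not stated, and p-values then describe the spread between samples only.

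Libraries held 14443186 to 22048689 counts. Transcripts of mitochondrial DNA took 22.4 ± 1.10% of counts in con-named and 25.2 ± 1.19% in HF-named libraries (SD, n = 6 each). Abundant cardiomyocyte markers were present as the tissue label asks, with a summed level of 65447 to 74131 CPM in con-named and 67128 to 73735 CPM in HF-named libraries. CPM is a count scaled to the size and composition of its library. Of 10 cardiomyocyte markers tested 1 was higher and 4 were lower in HF-named libraries, and of 10 each, 4 fibroblast, 3 endothelial and 3 macrophage markers were lower and 0 higher. The summed fibroblast level was 1486 to 1907 CPM and 1218 to 1489 CPM, the endothelial 1456 to 1855 and 1156 to 1718, and the macrophage 253 to 345 and 213 to 282, con-named first. Of 8 mural markers 0 passed in edgeR, and of 7 erythroid markers 1 was higher. Of 3 tested adipocyte markers 1 was higher, and of 3 tested atrial markers 0 passed. For comparison, 8.28% of all genes tested were called higher and 5.05% lower. In bulk tissue, fewer cells of a type and less RNA per cell cannot be told apart.

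The closest relatives show how far the counting could keep members apart. Slc25a4 and Slc25a5 encode the 2 adenine nucleotide translocases whose ratio differed between the groups, and their coding sequences, 897 bases each, are 77.5% identical, with a longest identical run of 20 bases (longest open reading frames of GENCODE M21 transcripts). Among stretches of 60 bases that begin with a whole codon, the most alike is shown with the differing bases in capitals. It covers coding positions 64 to 123 from the A of the start codon.
Slc25a4: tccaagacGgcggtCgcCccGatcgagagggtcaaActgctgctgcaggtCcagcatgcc
Slc25a5: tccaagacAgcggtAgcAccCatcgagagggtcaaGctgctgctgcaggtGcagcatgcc
Even here 6 of 60 bases differ. Words of 50 bases shared with another annotated gene made up 0 of 2304 words for Slc25a4 but 33.8% of the words for Slc25a5, whose shared words lie in the processed copies Gm5560, Gm5529, Slc25a5-ps and Gm5256. The value of Slc25a5 is therefore less certain than that of Slc25a4. Shared words reached 6.99% for Slc25a37, 6.7% for Slc25a36 and 5.61% for Slc25a20, and 0 for Slc25a10, Slc25a15, Slc25a26, Slc25a32, Ucp2 and Ucp3.

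Levels per length, as the authors' FPKM (counts scaled to gene length and library total), spanned several orders of magnitude. Slc25a4 led with a mean of 1842 FPKM over the 12 libraries, 63.7% of the summed FPKM of the 43 genes. Then came Slc25a3 (252 FPKM), the oxoglutarate carrier gene Slc25a11 (219 FPKM), Slc25a5 (119 FPKM) and Slc25a34 (94.8 FPKM), a carrier with no settled substrate. Slc25a20 (45.1 FPKM), Ucp3 (40.5 FPKM) and the aspartate-glutamate carrier gene Slc25a13 (37.3 FPKM) followed. At the low end stood Slc25a18 (0.417 FPKM), a glutamate carrier gene, Slc25a31 (0.378 FPKM), a translocase best known from testis, and Slc25a53 (0.242 FPKM). In all, 4 genes exceeded 100 FPKM, 11 lay between 10 and 100, 24 between 1 and 10, and 4 below 1. Of the 42 steps in this order, 12 held in all 12 libraries, among them the steps from Slc25a4 through Slc25a3 and Slc25a11 to Slc25a5, and 30 did not. Slc25a20 exceeded Ucp3 in 6 of 6 HF-named but 1 of 6 con-named libraries, so the order of this pair turned between the groups, a difference that was not tested. Ucp3 exceeded Slc25a13 in 4 con-named and 2 HF-named libraries, so these neighbours did not differ beyond their spread. Ucp2, widely expressed in immune cells, had 8.10 FPKM.

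**Figure D1:**
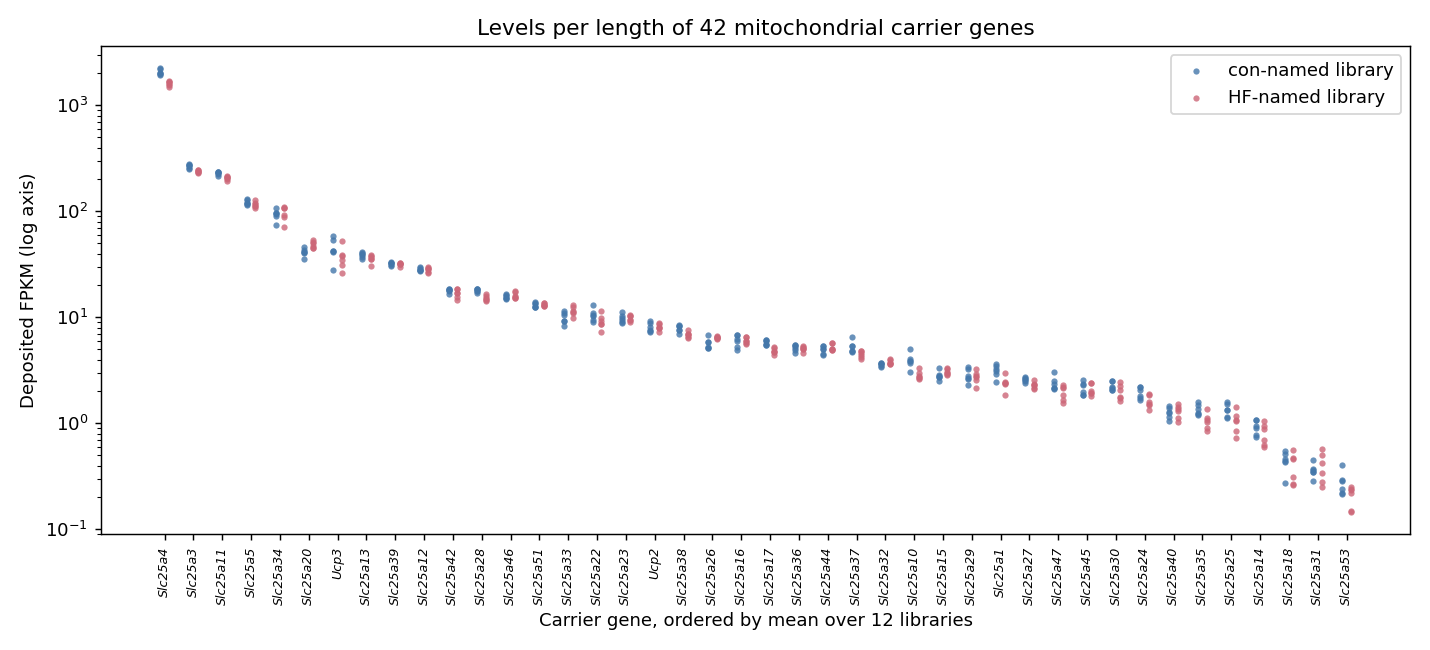
Deposited FPKM (log axis) of 42 of the 43 genes, ordered by their mean, with 1 point per library (blue con-named, red HF-named, 6 each). Slc25a4 stands apart at 1842 FPKM, and most genes below it overlap their neighbours.

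The comparison of the groups asks which carrier transcripts differ between the model and control ventricle. Of 43 genes, 6 (14.0%) were called in the edgeR quasi-likelihood test at 0.05, adjusted by Benjamini and Hochberg over all 15114 genes tested, of which 13.3% passed. Slc25a20, Slc25a26, Slc25a15 and Slc25a32 were higher in HF-named libraries (8.28% of all genes were), and Slc25a4 and Slc25a10 were lower (5.05% of all genes were). The share of members that passed is close to the background, so it is not a result about the family. Log2 fold changes of the 43 genes ran from -0.35 to 0.35, with 22 positive and 21 negative. Their median was 0.01, against -0.01 over all genes, and their median size was 0.13, the same as over all genes. The 6 genes sit in 4 of 9 roles, with 2 each among the carnitine and amino acid carriers and among the cofactor, nucleotide and one-carbon carriers. The other 5 roles had 0 genes past the test. An unadjusted p under 0.05 was found for 15 of the 43 genes and for 4328 of all 15114.

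**Figure D2:**
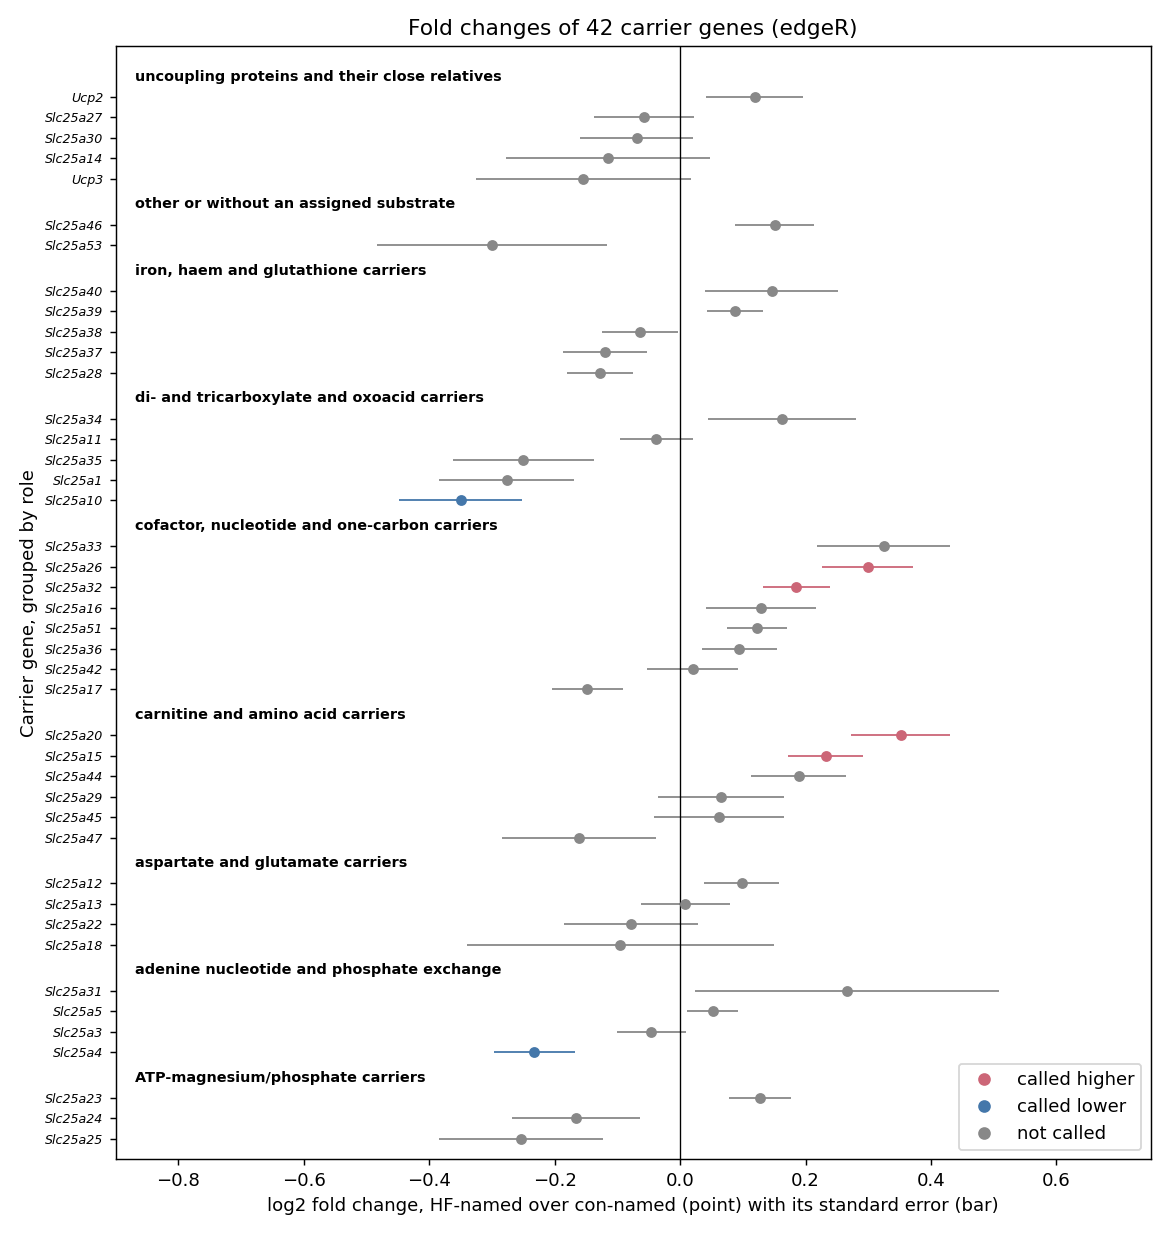
Log2 fold change of 42 of the 43 genes (points, HF-named over con-named, edgeR) with its standard error (bars), grouped by role. The 4 genes called higher and the 2 called lower are coloured, and no gene lies beyond 0.5 in either direction.

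Slc25a4 was lower in HF-named libraries. This gene (ENSMUSG00000031633, mm10 chromosome 8, 46206797 to 46211284, minus strand) encodes the translocase of heart and muscle that hands ATP to the cytosol in exchange for ADP. Its level was 4151, 4688 and 5106 CPM (lowest, median and highest) in con-named and 3564, 3946 and 4363 CPM in HF-named libraries. In 5 of 6 HF-named libraries it lay below every con-named library, and the sixth, HF-named replicate 5, overlapped with con-named replicate 2. The means of 4675 ± 321 and 3979 ± 263 CPM (SD, n = 6 each) gave a log2 change of -0.23 with SE 0.06 (edgeR adjusted p = 0.0253). Because Slc25a4 is so abundant, its share of all carrier counts was 54.6 ± 1.45% in con-named and 50.2 ± 1.21% in HF-named libraries, with ranges of 53.3 to 57.1% and 49.0 to 52.2%. It no longer passed when HF-named replicate 1, 2 or 4 was left out (highest edgeR adjusted p = 0.0567) or when genes of low counts were kept (0.107).

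Of the 10 cardiomyocyte markers, 4 had log2 fold changes close to that of Slc25a4 and were called lower. These were the myosin light chain genes Myl3 (-0.25) and Myl2 (-0.24) and the troponin genes Tnni3 (-0.25) and Tnnt2 (-0.23), while the calcium release channel gene Ryr2, called higher, was at 0.46. The myosin heavy chain genes Myh6 (0.13) and Myh7 (0.00), the actin gene Actc1 (0.02), Pln (-0.06) and Mb (-0.06) did not pass. Their part in the Slc25a4 result was not tested.

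The other members of adenine nucleotide and phosphate exchange did not pass. The phosphate carrier gene Slc25a3 was at 1425 ± 81.1 and 1380 ± 64.8 CPM (-0.05, edgeR adjusted p = 0.626). Slc25a5, the translocase of most non-muscle tissues, ran from 184 to 198 CPM in con-named and from 192 to 208 CPM in HF-named libraries. Its log2 fold change was 0.05 (edgeR adjusted p = 0.440), which turned to -0.06 when libraries were scaled by their totals alone. Over all genes, that scaling moved the median from -0.01 to -0.13. Slc25a5 was also the steadiest member, with a coefficient of variation of 2.71% in con-named and 3.27% in HF-named libraries. The median over the 30 genes with at least 10 CPM was 6.96% and 7.44%. Slc25a31 was near the detection limit, at 0.738 ± 0.114 and 0.885 ± 0.312 CPM. A count of 3 equals 0.136 to 0.208 CPM, depending on the library.

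Slc25a20 had the largest positive fold change and the smallest p of the 43 genes. This gene (ENSMUSG00000032602, chromosome 9, 108662088 to 108684641, plus strand) encodes the carnitine-acylcarnitine translocase, the step that brings long-chain acyl groups into the matrix for oxidation. Its level was 158, 195 and 218 CPM in con-named and 214, 253 and 272 CPM in HF-named libraries (lowest, median and highest). In 5 of 6 HF-named libraries it lay above every con-named library, and HF-named replicate 3 overlapped with con-named replicate 6. The means were 194 ± 20.9 and 247 ± 25.8 CPM (SD, n = 6 each), a log2 change of 0.35 with SE 0.08 (edgeR adjusted p = 0.00956). The call held in all 12 fits that left out 1 library.

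Enzymes that work on either side of Slc25a20 were examined as a list of the carnitine shuttle. Of its 8 tested genes 3 were higher and 0 lower, against 8.28% and 5.05% of all genes. The median log2 fold change of the list was 0.21. Cpt2, which returns acyl groups to coenzyme A in the matrix, had a log2 fold change of 0.45 (edgeR adjusted p = 0.00219). Crat, which makes short-chain acylcarnitines, went from 491 ± 44.9 to 628 ± 57.8 CPM (0.35, edgeR adjusted p = 0.00579). Acsl1, the main acyl-CoA synthetase of heart, went from 800.1 ± 83.3 to 1077 ± 141 CPM (0.43, edgeR adjusted p = 0.00604). For Cpt2, Crat and Acsl1 all 6 HF-named libraries lay above all 6 con-named ones, as they did for 3.41% of all genes. The plasma membrane carnitine transporter gene Slc22a5 (0.25, edgeR adjusted p = 0.0569), the outer membrane acyltransferase genes Cpt1a (-0.17, 0.141) and Cpt1b (0.17, 0.253), Crot (0.09, 0.371) and Cpt1c (0.03, 0.901) did not pass. Mean levels were 81.4 and 72.5 CPM for Cpt1a and 12.7 and 14.3 CPM for Cpt1b, con-named first. How fully the reads of Cpt1b were counted was not tested.

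Slc25a15 was also higher. It (ENSMUSG00000031482, chromosome 8, 22375551 to 22398597, minus strand) encodes an ornithine carrier that links the matrix and cytosolic parts of ornithine metabolism. Its level was 14.1, 15.1 and 17.2 CPM in con-named and 16.9, 17.9 and 19.4 CPM in HF-named libraries (lowest, median and highest), and 5 of 6 HF-named libraries exceeded every con-named one. The log2 fold change was 0.23 with SE 0.06 (edgeR adjusted p = 0.0197), a call lost under library totals (log2 fold change 0.11) and when con-named replicate 5 was left out (edgeR adjusted p = 0.0504) or genes of low counts were kept (0.0536). The other 4 members of this role did not pass. They were Slc25a44, a carrier of branched-chain amino acids, at 17.1 ± 1.72 and 19.4 ± 1.68 CPM (0.19, edgeR adjusted p = 0.109), Slc25a29, a basic amino acid carrier (0.07), Slc25a45 (0.06) and Slc25a47 (-0.16). Slc25a29 and Slc25a47 are neighbours on chromosome 12, on opposite strands and 162 bases apart.

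Both cofactor carriers that passed serve one-carbon metabolism. Slc25a26 (ENSMUSG00000045100, chromosome 6, 94500331 to 94604672, plus strand) brings the methyl donor S-adenosylmethionine into the matrix, and Slc25a32 (ENSMUSG00000022299, chromosome 15, 39091231 to 39112716, minus strand) is known for the transport of folate and flavin. Slc25a26 had 23.1, 25.1 and 32.5 CPM in con-named and 31.1, 32.2 and 33.9 CPM in HF-named libraries (lowest, median and highest). Only con-named replicate 6 reached the HF-named range, in which the 6 libraries lay close together. The means of 26.3 ± 3.47 and 32.3 ± 1.15 CPM gave a log2 change of 0.30 with SE 0.07 (edgeR adjusted p = 0.0139), which passed in all 12 fits without 1 library but not under library totals (0.18, edgeR adjusted p = 0.0646). Of its exon bases, 3.0% lie under Lrig1 on the opposite strand, and without strand information reads there cannot be told apart.

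Slc25a32 had 19.3, 21.3 and 22.1 CPM in con-named and 22.7, 24.0 and 25.1 CPM in HF-named libraries (lowest, median and highest). It was the 1 member whose groups did not overlap, with every HF-named library higher. Over all genes, 3.41% were apart in this direction, 1.95% in the other and 5.36% in either. The log2 fold change was 0.19 with SE 0.05 (edgeR adjusted p = 0.0300). It no longer passed when any of con-named libraries 2, 4, 5 and 6 or HF-named libraries 5 and 6 was left out (highest edgeR adjusted p = 0.0832), when genes of low counts were kept (0.0857) and under library totals (log2 fold change 0.07).

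The other 7 members of that role did not pass. Slc25a33, a pyrimidine nucleotide carrier gene, lay just outside the threshold, at 14.5, 18.2 and 21.3 CPM against 18.2, 22.3 and 26.4 CPM (lowest, median and highest, con-named first). Its groups overlapped, and the log2 fold change was 0.32 with SE 0.11 (edgeR adjusted p = 0.0524), while limma-voom and DESeq2 called it. Of its exon bases 14.9% lie under the antisense gene Gm13068. The NAD carrier gene Slc25a51 was at 69.7 ± 3.66 and 75.8 ± 3.60 CPM (0.12, edgeR adjusted p = 0.100), the coenzyme A carrier gene Slc25a42 at 104 ± 7.22 and 105 ± 12.4 CPM (0.02, edgeR adjusted p = 0.887), and the peroxisomal carrier gene Slc25a17 at 15.9 ± 0.571 and 14.3 ± 0.774 CPM (-0.15, edgeR adjusted p = 0.0927). Slc25a16 (0.13) and the pyrimidine nucleotide carrier gene Slc25a36 (0.09) had adjusted p of 0.359 and 0.322 in edgeR.

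Slc25a10 had the most negative fold change. It (ENSMUSG00000025792, chromosome 11, 120491840 to 120499187, plus strand) encodes the dicarboxylate carrier, which exchanges malate and succinate for phosphate. Its level was 10.4, 13.0 and 17.0 CPM in con-named and 9.77, 10.1 and 11.2 CPM in HF-named libraries (lowest, median and highest). In 5 of 6 HF-named libraries it lay below every con-named library, and the con-named libraries spread widely, with a coefficient of variation of 17.1% against 5.08%. The means were 13.1 ± 2.24 and 10.3 ± 0.522 CPM, a log2 change of -0.35 with SE 0.10 (edgeR adjusted p = 0.0264). It no longer passed when HF-named replicate 2, 5 or 6 was left out (highest edgeR adjusted p = 0.0523). Of its exon bases 6.6% lie under the antisense gene Gm11788.

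The other 4 carboxylate and oxoacid carriers did not pass. The citrate carrier gene Slc25a1 was at 6.55 ± 0.806 and 5.41 ± 0.626 CPM (-0.28, edgeR adjusted p = 0.0970). Slc25a35 had a log2 fold change of -0.25 (edgeR adjusted p = 0.154), but 31.3% of its exon bases lie under Rangrf on the opposite strand. Slc25a34 was at 241 ± 34.1 and 269 ± 50.4 CPM (0.16, edgeR adjusted p = 0.396). Slc25a11, which takes part in the malate-aspartate shuttle, was at 470 ± 27.3 and 458 ± 33.9 CPM (-0.04, edgeR adjusted p = 0.716). Under library totals it was called lower (-0.15, edgeR adjusted p = 0.0185).

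**Figure D3:**
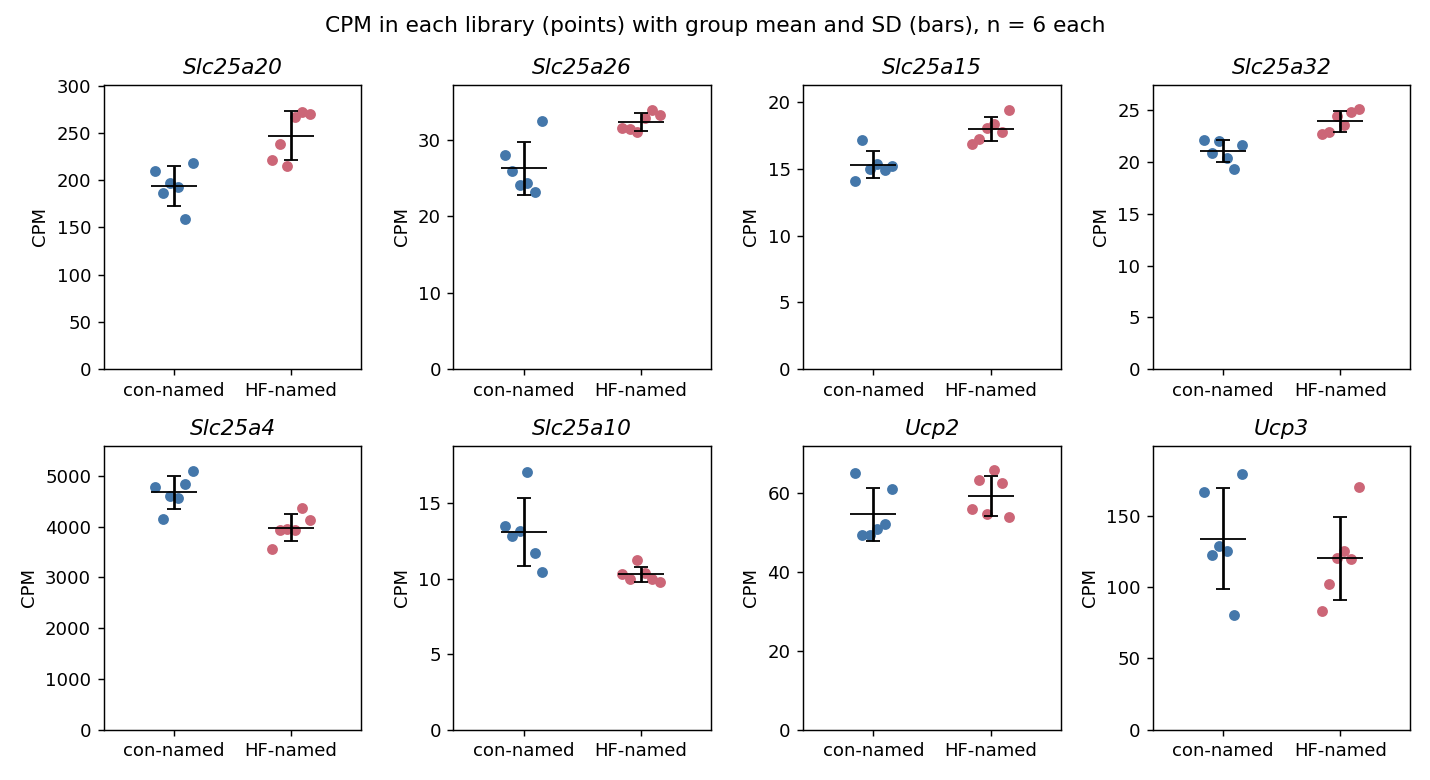
CPM of the 6 genes that passed and of Ucp2 and Ucp3 in each library (points), with the group mean and SD (bars, n = 6 each) on axes that start at 0. Slc25a32 alone has groups that do not overlap, and both Ucp genes overlap widely.

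In the main fit the carriers of the malate-aspartate shuttle moved little. Slc25a12, the aspartate-glutamate carrier typical of heart, was at 202 ± 12.5 and 216 ± 17.7 CPM (0.10, edgeR adjusted p = 0.301). Its paralog Slc25a13 was at 142 ± 9.92 and 143 ± 15.8 CPM (0.01, edgeR adjusted p = 0.955). The glutamate carrier genes Slc25a22 (-0.08) and Slc25a18 (-0.10) did not pass either. Among 7 enzymes of the malate-aspartate and glycerol phosphate shuttles 0 passed in edgeR (13.3% of all genes did), with a median of -0.02. The mitochondrial glycerol phosphate dehydrogenase gene Gpd2 (0.18, edgeR adjusted p = 0.126) and its cytosolic partner Gpd1 (-0.07, edgeR adjusted p = 0.521) stood among them.

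Among the uncoupling proteins and their relatives 0 of 5 genes passed in edgeR and 0 had an unadjusted p under 0.05. Ucp3, the form of muscle and heart, had 80.7, 127 and 180 CPM in con-named and 83.0, 120 and 171 CPM in HF-named libraries (lowest, median and highest), and each group spanned nearly the range of the other. The means of 134 ± 35.3 and 120 ± 29.2 CPM gave a log2 change of -0.15 with SE 0.17 (edgeR adjusted p = 0.600). Ucp3 was the most variable member with at least 10 CPM, with coefficients of variation of 26.3% and 24.3%, and its fold change ran from -0.28 to -0.06 when single libraries were left out. At this spread a difference of that size was not detectable.

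Ucp2 had 49.2, 51.4 and 64.9 CPM in con-named and 53.7, 59.1 and 65.7 CPM in HF-named libraries (lowest, median and highest), which overlapped. Its means of 54.5 ± 6.71 and 59.2 ± 5.14 CPM gave a log2 change of 0.12 with SE 0.08 (edgeR adjusted p = 0.332). Macrophage markers, of a cell type known to express Ucp2, had a median log2 fold change of -0.25, and their part in the Ucp2 level was not tested. Of its exon bases 4.36% lie under Dnajb13 on the opposite strand. Ucp2 lies 6904 bases from Ucp3 on chromosome 7, on the same strand. The relatives Slc25a14 (-0.12), Slc25a30 (-0.07) and Slc25a27 (-0.06) did not pass.

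Ucp1 had 1 count in con-named replicate 6, 4 in HF-named replicate 1, 1 in HF-named replicate 4 and 0 in the other libraries, where 3 counts is the detection limit used here. Of 11 listed fat cell markers, 3 had enough counts to be tested. Among the rest, totals over the con-named and HF-named libraries were 6 and 2 counts for Adipoq, 3 and 2 for Plin1, and 0 and 2 for Lep. Cidea, a gene of brown fat that is also found in heart, was at 23.8 ± 2.65 and 30.0 ± 2.11 CPM (0.33, edgeR adjusted p = 0.00845). The other tested markers were well above the detection limit. Prdm16 was at 20.7 ± 2.64 and 24.4 ± 1.30 CPM (0.23, edgeR adjusted p = 0.0532). Fabp4, also on the endothelial list, was at 547 ± 62.4 and 480 ± 74.9 CPM (-0.19, edgeR adjusted p = 0.199).

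Neither the calcium-dependent ATP-magnesium/phosphate carriers, which set the matrix pool of adenine nucleotides, nor the iron, haem and glutathione carriers had a member that passed in edgeR. Slc25a23 was at 49.7 ± 2.92 and 54.3 ± 2.49 CPM (0.13, edgeR adjusted p = 0.0969), Slc25a24 at 6.42 ± 0.687 and 5.74 ± 0.631 CPM (-0.17, edgeR adjusted p = 0.300), and Slc25a25 at 10.1 ± 1.32 and 8.56 ± 1.81 CPM (-0.25, edgeR adjusted p = 0.213). The mitoferrin genes Slc25a37 (-0.12) and Slc25a28 (-0.13), which bring iron to the matrix, were at 30.6 ± 3.30 and 28.2 ± 1.20 CPM and at 26.3 ± 1.11 and 24.0 ± 1.29 CPM. The glutathione carrier genes Slc25a39 (0.09) and Slc25a40 (0.15) and the glycine carrier gene Slc25a38 (-0.06) did not pass. Slc25a46, an outer membrane protein of mitochondrial dynamics, was at 66.4 ± 4.46 and 73.6 ± 6.76 CPM (0.15, edgeR adjusted p = 0.123) and passed without HF-named replicate 3 (0.0473). Slc25a53, the other gene with no assigned substrate, had 2.11 ± 0.465 and 1.71 ± 0.382 CPM (-0.30, edgeR adjusted p = 0.300).

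Related carriers were also set against each other within each library, which removes any scaling common to both. For 12 pairs, the log2 ratio of counts was compared by a two-sided exact permutation test with all regroupings enumerated, whose smallest p is 0.002165, with Benjamini-Hochberg adjustment over the 12 pairs. The ratio of Slc25a4 to Slc25a5 was 24.3 ± 1.51 in the con-named (21.5 to 26.1) and 19.95 ± 1.205 in HF-named libraries (18.5 to 22.02; SD, n = 6 each). It lay below every con-named library in 5 of 6 HF-named ones, a difference of -0.28 on the log2 scale (exact permutation p = 0.004329, adjusted p = 0.0390). The ratio of Slc25a23 to Slc25a24 was 7.75 ± 0.651 (6.89 to 8.68) and 9.51 ± 1.30 (8.38 to 12.0), above every con-named library in 4 of 6 HF-named ones, with a difference of 0.29 (exact permutation p = 0.006494, adjusted p = 0.0390). Both calls were fragile, since the first passed in 5 and the second in 4 of the 12 sets that left out 1 library (exact permutation adjusted p up to 0.0779 for each). The differences ran from -0.32 to -0.26 and from 0.22 to 0.32 in those sets. Without HF-named replicate 5 the first was larger in size, at -0.31, yet did not pass (exact permutation adjusted p = 0.05195). Fewer libraries give fewer regroupings, so a lost call need not mean a smaller difference.

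The other 10 ratios did not pass. Slc25a33 to Slc25a36 (0.23, exact permutation adjusted p = 0.121) and Slc25a23 to Slc25a25 (0.39, 0.136) came next. Ucp3 to Ucp2 was 2.44 ± 0.470 and 2.05 ± 0.604 (-0.27, exact permutation p = 0.206, adjusted p = 0.308). Slc25a12 to Slc25a13 was 1.43 ± 0.101 and 1.52 ± 0.103 (0.09, exact permutation adjusted p = 0.215).

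**Figure D4:**
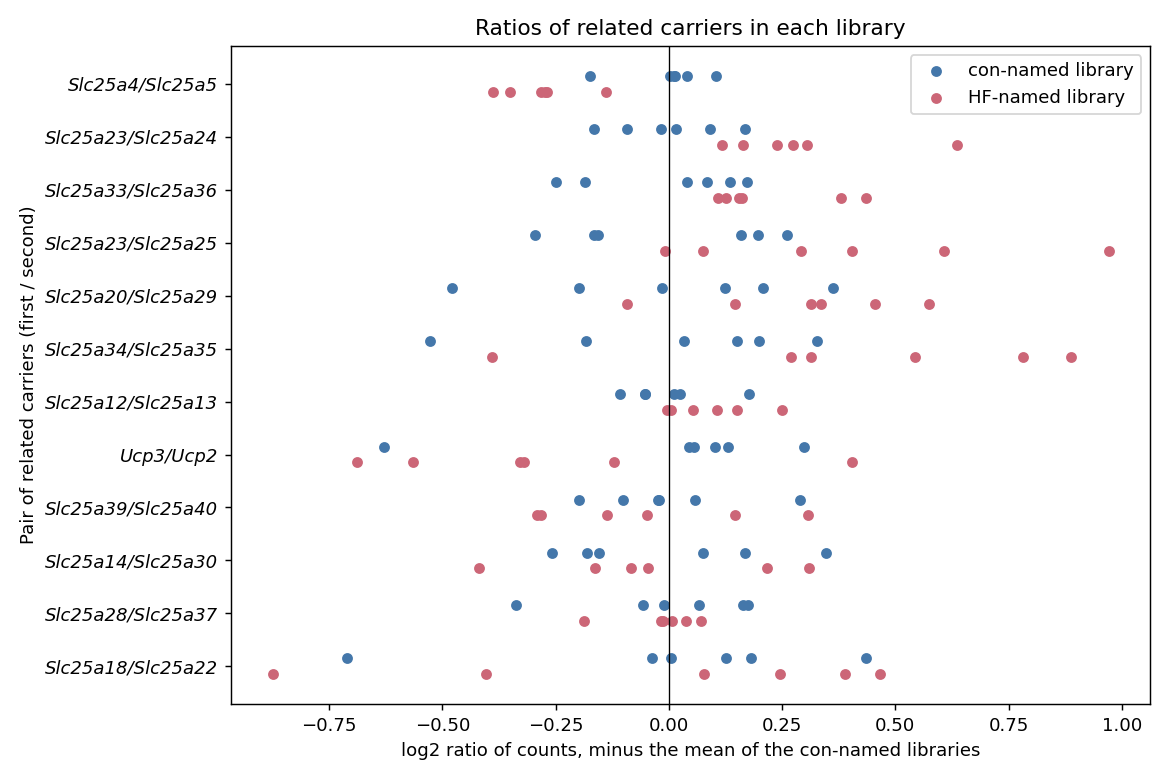
Log2 ratio of counts for 12 pairs of related carriers in each library, minus the mean of the con-named libraries (blue con-named, red HF-named, 6 points each). The ratios of Slc25a4 to Slc25a5 and of Slc25a23 to Slc25a24 are the 2 that passed the test.

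Over all genes, fold changes moved with gene length, and whether the members differed from this trend was not tested. With the genes tested split into 4 length classes of equal size, from shortest to longest, the median over all genes was a log2 fold change of -0.08, -0.04, 0.00 and 0.06, and that of the 9, 15, 13 and 6 members in those classes was -0.10, -0.06, 0.13 and 0.10. Slc25a4 (2353 bases) lies in the shortest and Slc25a10 (3455 bases) in the second class. The 4 genes called higher all lie in the third (4104 to 6456 bases), and in the longest class 0 of 6 members were called. From the shortest to the longest class, 3.17, 5.02, 8.48 and 16.4% of all genes were called higher. The shares called lower were 7.43, 6.2, 4.03 and 2.63%. Spearman's rho between length and log2 fold change was 0.151 over the 43 members and 0.235 over all genes, which are not independent replicates. In a fit with offsets for length and GC content, chosen after seeing the data, Slc25a20 (0.35, edgeR adjusted p = 0.0113), Slc25a26 (0.30, 0.0177) and Slc25a15 (0.22, 0.0231) passed. Slc25a4 (-0.18, edgeR adjusted p = 0.0799), Slc25a10 (-0.28, 0.0786) and Slc25a32 (0.15, 0.0869) did not pass there, while Slc25a33 (0.42, 0.0255), Slc25a23 (0.18, 0.0255) and Slc25a39 (0.18, 0.0395) did.

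**Figure D5:**
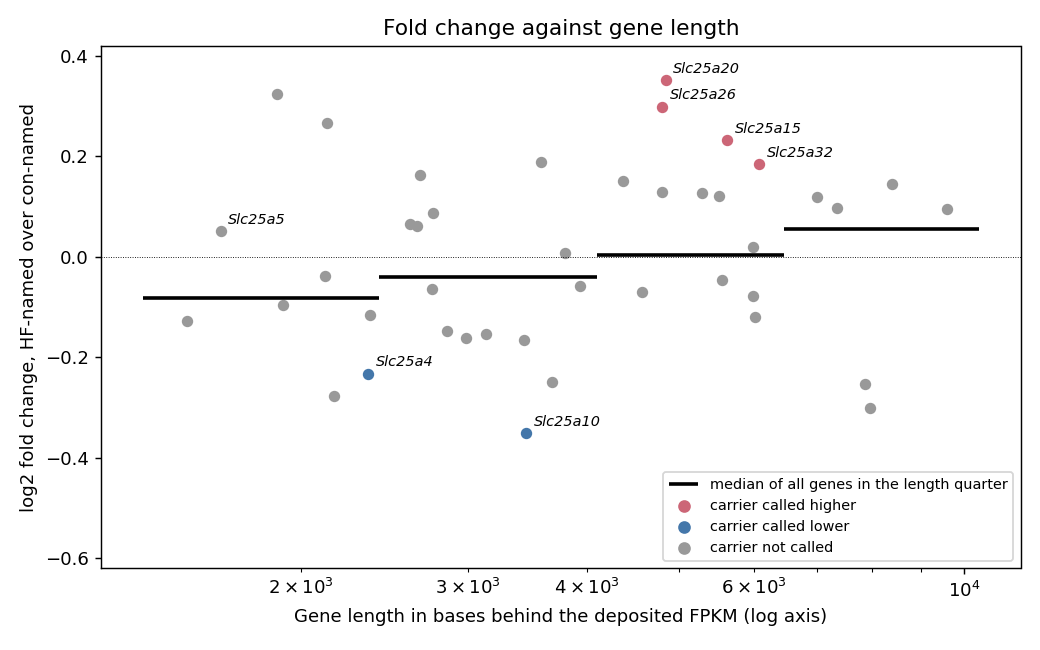
Log2 fold change of 42 of the 43 genes against gene length (log axis), with black bars for the median of all genes in each of 4 length classes. The medians run from -0.08 in the shortest to 0.06 in the longest class, and the 4 genes called higher share the third. In that class 8.48% of all genes were called higher.

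The machinery that inserts carriers into the inner membrane showed no common direction. Tested were 15 genes of the outer membrane receptors, small chaperones and inner membrane translocase, with a median of -0.01. Against 8.28% and 5.05% of all genes, 1 of the 15 was higher and 1 lower. These were the carrier receptor gene Tomm70a (80.8 ± 6.21 to 92.0 ± 5.19 CPM, 0.19, edgeR adjusted p = 0.0365) and the small chaperone gene Timm13 (37.9 ± 2.90 to 33.2 ± 2.12 CPM, -0.19, edgeR adjusted p = 0.0458). They passed in 5 and 2 of the 12 fits without 1 library, and neither passed when genes of low counts were kept (edgeR adjusted p = 0.0872 and 0.0594). Of 25 other transporters of the mitochondrial membranes, 3 were higher and 1 was lower (8.28% and 5.05% of all genes), with a median of -0.08. Among those higher were Ghitm, an inner membrane ion exchanger (0.23), and Micu2, a gatekeeper of the calcium uniporter (0.24), and the outer membrane protein gene Tspo was lower (-0.32). The pyruvate carrier genes Mpc1 (-0.12) and Mpc2 (-0.10) and the porin gene Vdac1 (0.16) did not pass.

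Start-site sequence was available for 34 of the 43 genes, as RefSeq windows of GRCm38.p6 that reach from upstream of the start to just past it. Motifs were searched on both strands, and a match is a description of letters only. An ETS-type core, CCGGAAG, was in the windows of 6 of 34 carriers (17.6%) and of 9.93% of 27025 genes. It is shown in capitals for the most abundant and for the most clearly changed member, which moved in opposite directions. Distances are from the RefSeq start of the window, 46211062 for Slc25a4 and 108662136 for Slc25a20. Both starts lie inside the GENCODE gene spans given above, and the Slc25a4 stretch does too.
Slc25a4, chr8:46211176-46211202, minus strand, 130 bases before the RefSeq start: cccctagctcCCGGAAGcgtcttcgcc
Slc25a20, chr9:108662047-108662073, plus strand, 79 bases before the RefSeq start: aggagggcagCCGGAAGtagacttcag
The others with this core were Slc25a3, Slc25a17, Slc25a25 and Slc25a38, of which 0 passed the edgeR test of expression. A GC box, GGGCGG, was in the windows of 29 carriers (85.3%, against 38.2% of genes). The letters TATAAA were in 1 (2.94%, against 15.7%), that of Slc25a18. Carrier windows were richer in G and C, with a median of 59.7% against 52.7% over all windows. The 27025 genes, unlike the carriers, were not limited to those with counts here. The part of either difference in these motif shares was not tested. A PPAR-type direct repeat, the ERR-type letters TCAAGGTCA and an NRF1-type palindrome were in 0 of 34 windows and in 0.048%, 0.466% and 1.07% of genes.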

How the data were processed

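The deposited table holds raw read counts per gene and the authors' FPKM for 12 libraries. Build mm10 was used with HISAT2 2.0.5, HTSeq 0.9.1 and cutadapt 1.15, per the submitters' processing notes. Strand setting and annotation release: not given in the sources used here. FPKM equals counts over total counts and a fixed gene length. A table of group comparisons deposited by the authors lists scaled mean counts (a signal), log2 fold changes and p-values, and in it 5 of the 43 genes had an adjusted p under 0.05, 3 higher and 2 lower, with Slc25a32 at 0.0597.

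From the counts, filterByExpr kept 15114 genes, and TMM scaling with edgeR 4.0.16 (limma 3.58.1, R 4.3.3) and a quasi-likelihood test with group as the only term gave fold changes. SE is the size of the log2 fold change over the square root of F. Levels in CPM use TMM-adjusted totals. Pair ratios add 0.5 to each count. Within groups, 30 library pairs had chi-square values of 4.35 to 18.12 per degree of freedom, above sampling noise. On simulated data with 14899 genes for this comparison, 44% of genes changed 1.25-fold, 80% at 1.5-fold, 90% at 2-fold and 100% at 4-fold were recovered, with 7 of 164 calls false. Members and lists were chosen with earlier results of these data known. Genes described by rule were the members that passed, the Ucp genes, the most abundant member of each role, both genes of a pair that passed and the 2 genes of smallest p in each other list. Further members were named for completeness, and further list genes after their values were seen. A member and a list gene are counted but not reported by name here. Alternatives were RLE factors, library totals, no filter, 10 counts in 6 libraries, a replicate block, limma-voom, DESeq2 1.42.0, no mitochondrial transcripts, each library left out, and, added later, length and GC offsets (splines, 5 df). Length for these was the one behind the deposited FPKM, and GC content came from the longest GENCODE M21 transcript of each gene.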

Additional observations from a re-analysis of the deposited data

Results flagged for a closer look

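In 3 of 56 groups of 6 libraries, 1 library stood apart from the others by Dixon's test at the 95% level, and chance flags about 1 in 20 groups. The ratio of Slc25a23 to Slc25a24 was 12.0 in HF-named replicate 6, against 8.38 to 9.54 in the other HF-named libraries. Slc25a24 had its lowest level of the HF-named libraries there, at 4.79 CPM. The ratio of Ucp3 to Ucp2 was 1.55 in con-named replicate 5, against 2.47 to 2.95 in the other con-named libraries. Ucp3 had its lowest level of all 12 libraries there, at 80.7 CPM, and Slc25a20 and Slc25a34 were also lowest there, at 158 and 184 CPM. The ratio of Slc25a28 to Slc25a37 was 0.758 in HF-named replicate 1, against 0.853 to 0.907 in the other HF-named libraries.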

How the results depend on the processing

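Among the 43 genes, the main counts were 4 higher and 2 lower, and these 6 genes also passed with RLE size factors, with a minimum of 10 counts in 6 libraries and without mitochondrial transcripts. With limma-voom and DESeq2 they passed together with Slc25a33. Library totals gave 1 higher and 8 lower, with 483 and 2582 over all genes (15.8% of calls higher, against 62.1%) and 4 and 17 in the other lists. The 8 lower were Slc25a4, Slc25a10 and, not called in the main fit, Slc25a1, Slc25a3, Slc25a11, Slc25a17, Slc25a28 and Slc25a37. Under library totals Slc25a13 (-0.11), Slc25a42 (-0.10), Slc25a39 (-0.028) and Slc25a5 (-0.063) turned negative. Without a filter, 2 carriers were higher and 1 lower (Slc25a20, Slc25a26 and Slc25a10), and 1 other list gene was lower. The same 3 carriers, 2 higher and 1 lower, passed with the replicate number as a block, where 748 genes in all were higher and 383 lower, 0 other list genes were lower and 0 pair ratios passed (exact permutation adjusted p = 0.1875 for both). With 6 blocks the smallest exact p is 0.03125, which at least 8 of 12 pairs would have to reach for any to pass, so that 0 says nothing about the ratios. No pairing by number was seen: correlations of same-numbered libraries ran from -0.16 to 0.09, and 2 of 6 correlated best with their own number. These values cannot show whether libraries of the same number were handled together. In the other lists, 4 genes were lower in DESeq2 and 4 without mitochondrial transcripts. Length and GC offsets, added after seeing the data, gave 0 lower carriers, 491 lower genes in all and 0 in the other lists, and turned Slc25a11 (0.055) and Gpd1 (0.024) positive. With 5 counts added, the ratio of Slc25a18 to Slc25a22 differed by 0.036 on the log2 scale.

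Leaving out each library gave 2 to 7 carriers higher and 0 to 3 lower, 836 to 1581 and 500 to 969 over all genes, 6 to 10 and 0 to 3 in the other lists, and 0 to 3 pair ratios. The lowest carrier counts came without con-named replicate 5 (2 higher) and HF-named replicate 2 (0 lower), and the highest without HF-named replicate 3 (7 higher). Fold changes ran from -0.027 to 0.064 for Slc25a13 and from -0.026 to 0.072 for Slc25a42, and ratio differences from -0.16 to 0.16 for Slc25a18 to Slc25a22, -0.099 to 0.047 for Slc25a14 to Slc25a30, -0.084 to 0.018 for Slc25a28 to Slc25a37 and -0.12 to 0.0075 for Slc25a39 to Slc25a40. The cause was not tested for any of these. Members near 1 CPM rest on few counts, and differences of their size were not detectable at this depth.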
